A study of Rattus norvegicus with 16 samples.

Results

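The G1 cyclins and their kinases were followed in PCCl3 cells, a differentiated rat thyroid follicular cell line, after silencing of the thyroid transcription factor Pax8. The members were 10 named genes, namely the D-type cyclins Ccnd1, Ccnd2 and Ccnd3, the cyclins Ccne1, Ccng1 and Ccnh, the kinases Cdk2, Cdk4 and Cdk7, and the retinoblastoma gene Rb1. They were found by resolving the transcript accession of each array probe to a current gene symbol. This gave 11 probes for 7 of the 10 genes, out of 41012 probes and 8899 named genes on the array. Ccnd1, Ccng1, Cdk2 and Cdk4 had 2 probes each, Ccnd2, Ccnd3 and Ccnh had 1, and Ccne1, Cdk7 and Rb1 were not analysed here because no probe accession resolved to them.

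Cells that had received a siRNA directed at Pax8 (siPax8) were compared by two-colour Agilent rat arrays with wild type (wt) cells on 8 arrays and with cells that had received a scrambled siRNA (siScramble) on the other 8. Each comparison held 4 biological replicates, each on 2 arrays with the dyes Cy3 and Cy5 exchanged. All cells were grown in medium with thyrotropin, insulin and serum. Each siRNA was given at 10 ng/ml with Lipofectamine, and cells were harvested for RNA 48 hours later. The labels call the remaining condition wild type, whereas the study's methods list cells treated with lipofectamine, so wt and siPax8 cells also differ in having received an siRNA, and possibly the transfection reagent. The study describes 4 different biological replicates for both comparisons, and neither this description nor the labels say whether the siPax8 samples were the same. Values of the comparisons are set side by side. In this transient transfection all cells of a culture were harvested together, so fewer cells in a cycle phase and less RNA per cell cannot be told apart.

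D-type cyclins are induced by growth signals and bind Cdk4 and the related Cdk6, and the complexes phosphorylate the retinoblastoma protein, which releases E2F factors for S phase entry. Cyclin E with Cdk2 completes this step, while cyclins A and B with Cdk2 and Cdk1 drive S phase and mitosis. Cyclin H, Cdk7 and Mnat1 form the Cdk-activating kinase, which is also part of the transcription factor TFIIH. Cyclin G1 is a transcriptional target of p53 and, unlike the classical G1 cyclins, is best known for binding protein phosphatase 2A. In thyroid follicular cells, thyrotropin acts through cyclic AMP to drive passage through G1.

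Values are log2 ratios of siPax8 over control, each the mean of the 2 dye-swapped arrays of one replicate. The labels say which dye marked which RNA, and by them a value below 0 means less signal in siPax8 cells. The study's text words its totals of down- and up-regulated probes in the opposite direction. Tests were made with limma over all 41012 probes, with Benjamini-Hochberg adjustment and the study's threshold of 0.005. Pax8 itself, read by 1 probe, gave -0.84, -0.57, -0.59 and -0.26 in replicates 1 to 4 against wt cells, with a mean of -0.56 ± 0.24 (SD, n = 4; limma adjusted p = 0.000472). Against siScramble cells the values were -0.58, -0.29, -0.12 and -0.01, with a mean of -0.25 ± 0.25 (SD, n = 4; limma adjusted p = 0.143). Replicate 4 of this comparison thus lay at the siScramble level, and without it the means of Ccnd1 and Ccnh against siScramble cells were 0.37 and -0.26, beside 0.39 and -0.29 with it. The thyroid follicular markers Tg, Slc5a5, Foxe1, Dio1, Duox2, Slc26a4 and Tshr were above background in all 32 array channels. Against wt cells Tg, Slc5a5, Foxe1, Dio1 and Duox2 fell past the threshold, Slc26a4 rose by 0.64 on the log2 scale (limma adjusted p = 1.87e-06) and Tshr had a mean of -0.13 (limma adjusted p = 0.0125). Against siScramble cells Tg alone of these passed, at -0.65 (limma adjusted p = 0.000528), and Slc5a5 and Slc26a4 had means of 0.07 and -0.18. Of the 11 measured markers of endothelial cells, fibroblasts, leukocytes and parafollicular cells, Col1a2, Cd68 and Calca were above background in 32 channels by 1 probe each, while Pecam1, Col3a1, Dcn and Lum were above it in 0 and Kdr, Cd79b, Csf1r and Chga in at most 14. Cd68 was higher in siPax8 than in wt cells, by 0.30 on the log2 scale (limma adjusted p = 0.000797), and its part in the results was not tested. All 11 member probes were above background in both channels of all 16 arrays, and none was saturated. Precision is limited by the number of arrays, and over all probes the replicate SD had a median of 0.063 against wt and 0.060 against siScramble cells.

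The members did not move together. Against wt cells Ccnd1 rose and Ccng1 fell, each by both of its probes, and no other member passed the threshold. That is 4 of 11 member probes, 2 in each direction, where 15.3% of all probes passed, 7.04% higher and 8.23% lower. Against siScramble cells 1 of the 11 probes passed, the Ccnd1 probe A_44_P189299, higher in siPax8 cells, where 2.11% of all probes passed, 1.22% higher and 0.897% lower. At an unadjusted limma p under 0.05 there were 8 member probes against wt cells, 2 higher and 6 lower, and 6 against siScramble cells, 3 in each direction, where 33.8% and 20.5% of all probes lay under this limit. The median log2 ratio of the 11 probes was -0.15 against wt and -0.03 against siScramble cells, beside -0.0036 and -0.00375 over all probes. The sign was the same in all 4 replicates for 7 of the 11 probes in each comparison, where it was for 38.8% and 26.9% of all probes. By gene, 1 of the 7 measured members was higher and 1 was lower with every probe against wt cells, where 7.26% and 9.46% of all named genes were, and 0 were against siScramble cells, where 1.67% and 1.31% were. The difference between the comparisons passed for 0 of the 11 probes in the limma fit, where 3.44% of all probes passed, and 5 lay at an unadjusted p under 0.05, where 22.1% of all probes did.

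**Figure D1:**
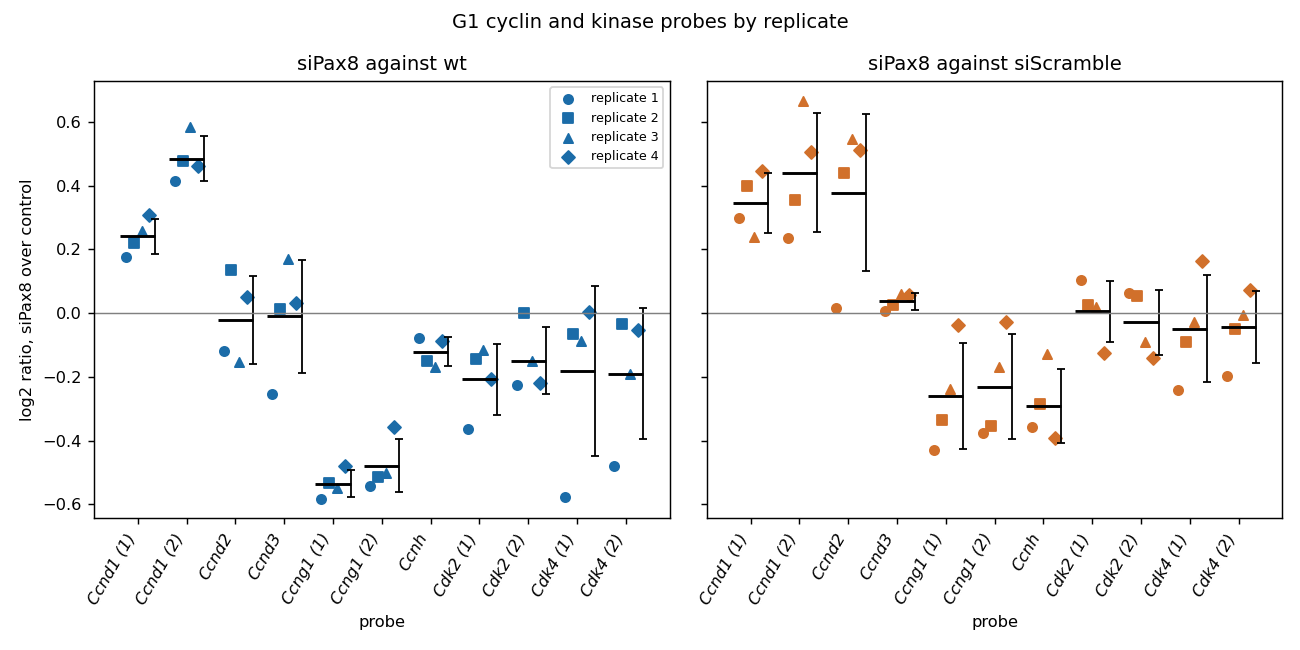
Log2 ratio of siPax8 over control for each of the 11 member probes, against wt cells on the left and siScramble cells on the right. Marker shapes are the 4 replicates, bars are means and error bars are SD. The Ccnd1 probes lie above 0 and the Ccng1 probes below 0 in every replicate of both comparisons, while replicate 1 stands apart for Cdk4 against wt cells and for Ccnd2 against siScramble cells.

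Ccnd1, the D-type cyclin that couples growth signals to Cdk4, was the member that rose. Its probe A_44_P411505 gave log2 ratios of 0.41, 0.48, 0.58 and 0.46 against wt cells, a mean of 0.48 ± 0.07 (SD, n = 4; limma adjusted p = 1.3e-05). Its probe A_44_P189299 gave 0.18, 0.22, 0.26 and 0.31, a mean of 0.24 ± 0.06 (SD, n = 4; limma adjusted p = 0.000497). All 8 values lay above 0, but the probes differed in size. Averaged over the probes, Ccnd1 was 28.6% higher than in wt cells. Against siScramble cells A_44_P189299 gave 0.30, 0.40, 0.24 and 0.45, a mean of 0.35 ± 0.09 (SD, n = 4; limma adjusted p = 0.00313). The other probe gave 0.24, 0.36, 0.67 and 0.51, a mean of 0.44 ± 0.19 that did not pass the threshold (SD, n = 4; limma adjusted p = 0.00857). Its replicate 3 was the highest of the 4 values in both comparisons. Averaged over the probes, Ccnd1 was 31.3% higher than in siScramble cells.

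The channel intensities show where these ratios came from. For A_44_P189299 the normalized log2 intensity lay between 14.58 and 14.69 in wt cells, between 14.43 and 14.59 in siScramble cells and between 14.76 and 14.93 over the 8 siPax8 values, so the siPax8 values overlapped neither control. For A_44_P411505 the siPax8 values, from 14.90 to 15.35, also lay above the wt values, from 14.49 to 14.76, and above the siScramble values, from 14.41 to 14.71. Ccnd1 was among the brightest signals, and the software had taken its Cy5 intensity from a scan at lower gain, scaled up, on all 16 arrays for both probes, as it did for 2.06% to 3.67% of the spots in that channel. In Cy3 this held on 6 arrays for A_44_P189299 and on 9 for A_44_P411505. With siPax8 in Cy5 the ratio of A_44_P189299 against wt cells was 0.43, and with siPax8 in Cy3 it was 0.05. Against siScramble cells these values were 0.53 and 0.16. For A_44_P411505 they were 0.51 and 0.46 with wt cells as control, and 0.53 and 0.35 with siScramble cells. The sign was thus the same in both orientations for both probes, while the size for A_44_P189299 depended on the dye. The part of the scaled scan in the size was not tested.

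**Figure D2:**
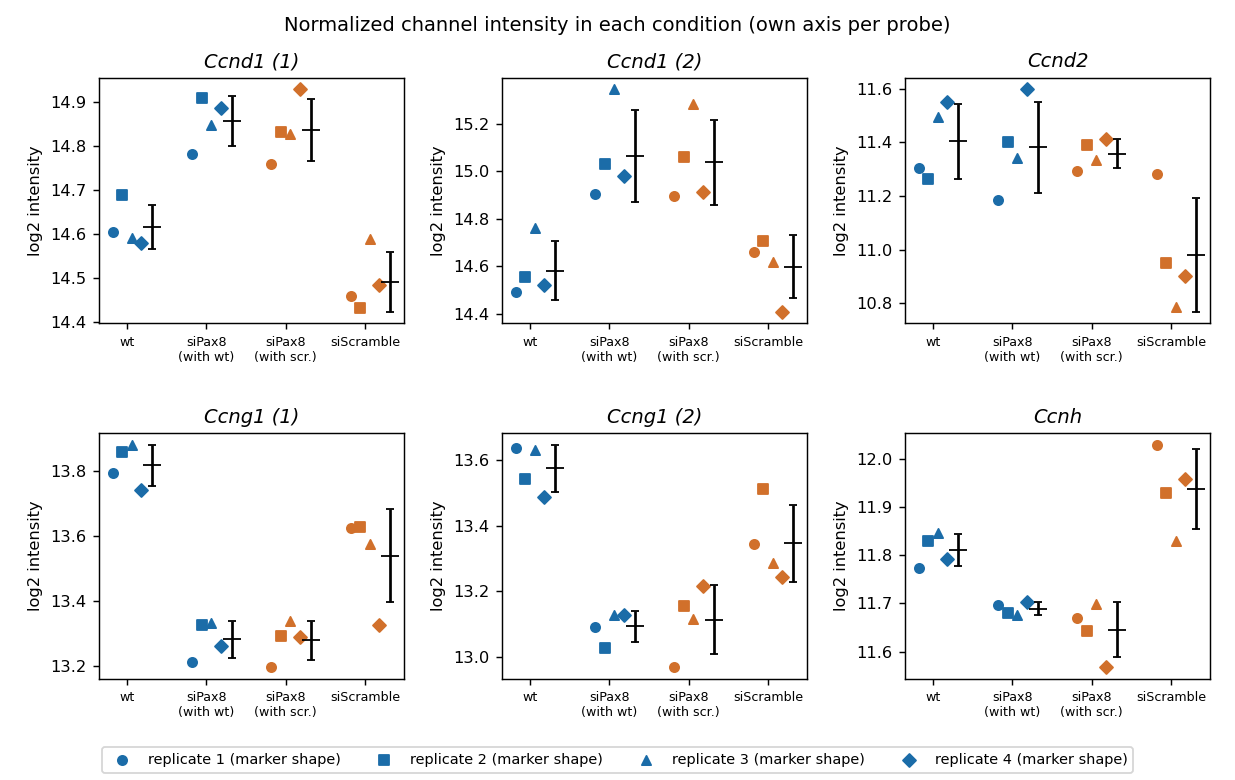
Normalized log2 intensity of Ccnd1, Ccnd2, Ccng1 and Ccnh probes in wt cells, in siPax8 cells as hybridized with wt and with siScramble cells, and in siScramble cells. Points are replicates, with marker shape for the replicate, crosses with error bars are means and SD, and each probe has its own axis. The siPax8 levels were alike in both hybridizations, and the siScramble means lay below the wt means for Ccnd2, Ccng1 and the Ccnd1 probe A_44_P189299.

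Against wt cells A_44_P411505 passed the threshold under all 18 alternative settings, with ratios from 0.45 to 0.52, whereas A_44_P189299 passed under 13, with ratios from 0.05 to 0.43. Against siScramble cells A_44_P189299 passed under 9 and A_44_P411505 under 7 of the 18, always with a ratio above 0, and neither passed with any single replicate left out, when their ratios ranged from 0.31 to 0.38 and from 0.37 to 0.51. The difference between the comparisons was -0.10 for A_44_P189299 (limma adjusted p = 0.268) and 0.04 for A_44_P411505 (limma adjusted p = 0.845). Among 4005 other named genes on the array with a mean log2 intensity above 8, the 5 whose 8 replicate values followed those of Ccnd1 most closely were Pdap1 (Pearson r = 0.97), Mtrex (0.93), Hnrnpr (0.92), Paics (0.92) and Prkce (0.92). These correlations rest on 8 values per gene that share arrays and may share siPax8 samples. They were picked as the highest of 4005, and whether any is higher than chance gives was not tested. The means of the 5 genes lay between -0.11 and 0.07 over both comparisons, so these genes followed the order of the replicates and not the rise.

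Ccnd2, another D-type cyclin, lay above its siScramble level in replicates 2 to 4 and close to it in replicate 1, and on both sides of its wt level. Its probe gave 0.01, 0.44, 0.55 and 0.51 against siScramble cells, a mean of 0.38 ± 0.25 (SD, n = 4; limma adjusted p = 0.0366), short of the threshold. Without replicate 1 the mean was 0.50 and passed (limma adjusted p = 0.00166), the lowest over the 18 settings, in which the adjusted p reached 0.424. Against wt cells it gave -0.12, 0.14, -0.15 and 0.05, a mean of -0.02 ± 0.14 (SD, n = 4; limma adjusted p = 0.839), with a 95% interval from -0.13 to 0.09. The siPax8 and wt intensities overlapped, at 11.19 to 11.60 and 11.27 to 11.55, while siScramble cells lay at 10.95, 10.79 and 10.90 in replicates 2 to 4 and at 11.28 in replicate 1. The ratio against siScramble cells was 0.64 with siPax8 in Cy5 and 0.11 with siPax8 in Cy3, and against wt cells these were 0.17 and -0.22. The difference between the comparisons, -0.40, did not pass the threshold (limma adjusted p = 0.042), and without replicate 1 it was -0.49 and passed (limma adjusted p = 0.00297). Ccnd3, the remaining D-type cyclin, gave -0.25, 0.01, 0.17 and 0.03 against wt cells, a mean of -0.01 ± 0.18 (SD, n = 4; limma adjusted p = 0.947) with a 95% interval from -0.14 to 0.12. Against siScramble cells its 4 values lay between 0.01 and 0.06, with a mean of 0.04 ± 0.03 (SD, n = 4; limma adjusted p = 0.525) and a 95% interval from -0.02 to 0.10. A change of the size measured for Ccnd1 is outside these intervals.

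Ccng1 was the member that fell against wt cells. Its probe A_44_P235919 gave -0.58, -0.53, -0.55 and -0.48 against wt cells, a mean of -0.54 ± 0.04 (SD, n = 4; limma adjusted p = 3.38e-06). Its probe A_44_P367761 gave -0.54, -0.51, -0.50 and -0.36, a mean of -0.48 ± 0.08 (SD, n = 4; limma adjusted p = 1.93e-05). The probes gave the same picture, and Ccng1 stood at 70.4% of its wt level. Both probes passed the threshold under all 18 alternative settings. With siPax8 in Cy5 and in Cy3 the ratios were -0.75 and -0.32 for A_44_P235919 and -0.43 and -0.53 for A_44_P367761. Within the 4 slides, each of which held 2 arrays of either comparison, the ratio lay between -0.57 and -0.43 for both probes.

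Against siScramble cells the same probes gave -0.43, -0.34, -0.24 and -0.04 (mean -0.26 ± 0.17, SD, n = 4; limma adjusted p = 0.0411) and -0.38, -0.35, -0.17 and -0.03 (mean -0.23 ± 0.16, SD, n = 4; limma adjusted p = 0.0584). All 8 values were below 0 and neither probe passed. Replicate 4, which had the smallest Pax8 reduction, also had the Ccng1 values closest to 0. In that replicate, however, Ccnd1 had its highest mean over the probes, 0.48, and Ccnh its lowest value, -0.39. A link between the members and the Pax8 level was not tested. Without replicate 4 the Ccng1 mean over its probes was -0.32 in place of -0.25 (larger limma adjusted p of its probes 0.0195). Over the 18 settings the adjusted p ranged from 0.00402 to 0.681 for A_44_P235919 and from 0.000204 to 0.548 for A_44_P367761, and 1 setting passed for each, with every ratio below 0. With siPax8 in Cy5 and in Cy3 the ratios were -0.48 and -0.04 for the first and -0.14 and -0.33 for the second probe, so the orientations differed in opposite ways. In siPax8 cells A_44_P235919 lay between 13.20 and 13.34 on the log2 intensity scale, below all wt values, from 13.74 to 13.88. The siScramble values were 13.62, 13.63, 13.58 and 13.33, so replicate 4 overlapped the siPax8 values. For A_44_P367761 the siPax8 values, from 12.97 to 13.22, lay below all siScramble values, from 13.24 to 13.51, and all wt values, from 13.49 to 13.64. The difference between the comparisons was -0.28 for A_44_P235919 (limma adjusted p = 0.033) and -0.25 for A_44_P367761 (limma adjusted p = 0.0643), short of the threshold for both.

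Ccnh, the cyclin of the Cdk-activating kinase, was lower in every replicate of both comparisons without passing the threshold in either. It gave -0.36, -0.29, -0.13 and -0.39 against siScramble cells, a mean of -0.29 ± 0.12 (SD, n = 4; limma adjusted p = 0.00983). Against wt cells it gave -0.08, -0.15, -0.17 and -0.09, a mean of -0.12 ± 0.05 (SD, n = 4; limma adjusted p = 0.0164). Unlike for Ccng1, the larger ratio was against siScramble cells. Its siPax8 intensities, from 11.57 to 11.70, lay below all wt values, from 11.77 to 11.85, and below all siScramble values, from 11.83 to 12.03. The difference between the comparisons, 0.17, did not pass the threshold (limma adjusted p = 0.0876). Ccnh passed against siScramble cells under 3 of the 18 settings and against wt cells under 2, and its adjusted p ranged from 0.000385 to 0.0828 and from 0.000417 to 0.805. With siPax8 in Cy5 and in Cy3 its ratios were -0.22 and -0.02 relative to wt cells and -0.38 and -0.21 relative to siScramble cells, below 0 in each.

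The stretches before the starts of Ccng1 and Ccnh, the members below 0 in every replicate of both comparisons by each probe, are shown with those of the mitotic cyclins Ccnb1 and Ccnb2, the cyclins against which the members are set. RefSeq promoters on GRCr8 were held for 8 of the 10 members and for 2 of the mitotic cyclins Ccna2, Ccnb1 and Ccnb2. None was held for Ccnd1, Ccnd2 or Ccna2, so these were not searched for motifs. Each sequence is 5′ to 3′ on the strand of the gene and runs from 250 bases before the start. The stretches of Ccng1 and Ccnb1 reach the start, and those of Ccnh and Ccnb2 leave out the last 45 and 59 bases, which overlap another transcript of the gene. Capitals mark CCAAT or its reverse complement ATTGG, the GC box GGGCGG or CCGCCC, and TTTGAA or TTCAAA. The windows are chr10:25684877-25685126 (minus strand), chr2:17570244-17570448 (plus strand), chr2:33655226-33655475 (minus strand) and chr8:79981718-79981908 (minus strand).
Ccng1: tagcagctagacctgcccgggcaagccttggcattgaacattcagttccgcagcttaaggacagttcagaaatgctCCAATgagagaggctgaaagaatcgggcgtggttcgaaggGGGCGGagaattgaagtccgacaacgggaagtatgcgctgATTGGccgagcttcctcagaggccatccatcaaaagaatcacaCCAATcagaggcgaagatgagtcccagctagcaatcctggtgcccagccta
Ccnh: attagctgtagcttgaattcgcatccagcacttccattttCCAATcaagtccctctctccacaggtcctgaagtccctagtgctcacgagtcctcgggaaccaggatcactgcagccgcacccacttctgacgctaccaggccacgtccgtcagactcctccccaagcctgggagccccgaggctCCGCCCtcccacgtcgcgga
Ccnb1: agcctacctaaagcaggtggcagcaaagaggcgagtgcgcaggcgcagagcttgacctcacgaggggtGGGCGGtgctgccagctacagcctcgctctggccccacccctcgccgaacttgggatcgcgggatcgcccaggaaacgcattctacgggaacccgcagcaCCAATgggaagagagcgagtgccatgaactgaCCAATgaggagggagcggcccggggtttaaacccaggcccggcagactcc
Ccnb2: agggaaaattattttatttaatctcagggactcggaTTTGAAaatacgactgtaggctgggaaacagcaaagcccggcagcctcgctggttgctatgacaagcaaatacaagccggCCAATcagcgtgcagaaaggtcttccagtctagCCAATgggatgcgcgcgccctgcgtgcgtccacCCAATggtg

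The motifs were searched on both strands in the 250 bases before each start: CCAAT (bound by NF-Y), GGGCGG (the GC box bound by Sp1), CACGTG (the E-box), TGACGTCA (the cyclic AMP response element) and TTTGAA (the core of the cell cycle genes homology region). No motif contains another. CCAAT stood in the Ccng1 window at 3 places, in Ccnb2 at 3, in Ccnb1 at 2 and in Ccnh at 1, and 34% of all 33469 promoters of that length held it. The 8 member promoters leave out Ccnd1 and Ccnd2 and include those of Ccne1, Cdk7 and Rb1, which had no probe. Of these 8 promoters 4 held CCAAT, 8 held GGGCGG (30.5% of all promoters), 2 held CACGTG (5.59%), and 0 held TGACGTCA (1.59%) or TTTGAA (16.2%). Beside Ccng1 and Ccnh, the members with CCAAT were Ccnd3 and Cdk2, with 1 copy each. The members with CACGTG were Cdk4, with 3 copies, and Cdk7, with 1. Among the mitotic cyclins, Ccnb2 held TTTGAA at 2 places, one of them downstream of the printed stretch. These are matches of letters and were not measured as binding.

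Neither kinase passed the threshold in either comparison. Cdk2, the partner of cyclins E and A, gave -0.36, -0.14, -0.12 and -0.21 against wt cells by probe A_42_P785419, a mean of -0.21 ± 0.11 (SD, n = 4; limma adjusted p = 0.00572), just short of the threshold, which 7 of the 18 settings passed. Its probe A_42_P785428 gave -0.23, 0.001, -0.15 and -0.22, a mean of -0.15 ± 0.11 (SD, n = 4; limma adjusted p = 0.0258). Against siScramble cells the means were 0.01 ± 0.10 and -0.03 ± 0.10 (SD, n = 4; limma adjusted p = 0.971 and 0.8), with replicates on both sides of 0. Cdk2 was thus lower than in wt cells in 7 of 8 values and without a direction relative to siScramble cells. The difference between the comparisons was -0.21 for A_42_P785419 (limma adjusted p = 0.0568) and -0.12 for A_42_P785428 (limma adjusted p = 0.312).

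Cdk4, the partner of the D-type cyclins, rested on replicate 1. Against wt cells probe A_44_P388777 gave -0.58, -0.07, -0.09 and 0.004 (mean -0.18 ± 0.27, SD, n = 4; limma adjusted p = 0.16). Probe A_44_P388782 gave -0.48, -0.03, -0.19 and -0.05 (mean -0.19 ± 0.21, SD, n = 4; limma adjusted p = 0.0665). Both probes set replicate 1 apart, and it came from the wt channel, where A_44_P388777 lay at 12.67 in replicate 1 and between 12.22 and 12.36 in the others, while the siPax8 values lay between 12.10 and 12.37. Without replicate 1 the mean over the probes was -0.07 in place of -0.19. Against siScramble cells the means were -0.05 ± 0.17 and -0.04 ± 0.11 (SD, n = 4; limma adjusted p = 0.767 and 0.695), and the 95% intervals ran down to -0.19 and -0.15. Against wt cells the 95% intervals of the probes ran from -0.37 to 0.005 and from -0.34 to -0.04. A fall of Cdk4 of the size seen for Ccng1 against wt cells, -0.51, is outside the intervals of both comparisons. Against siScramble cells the Ccng1 mean was -0.25.

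**Figure D3:**
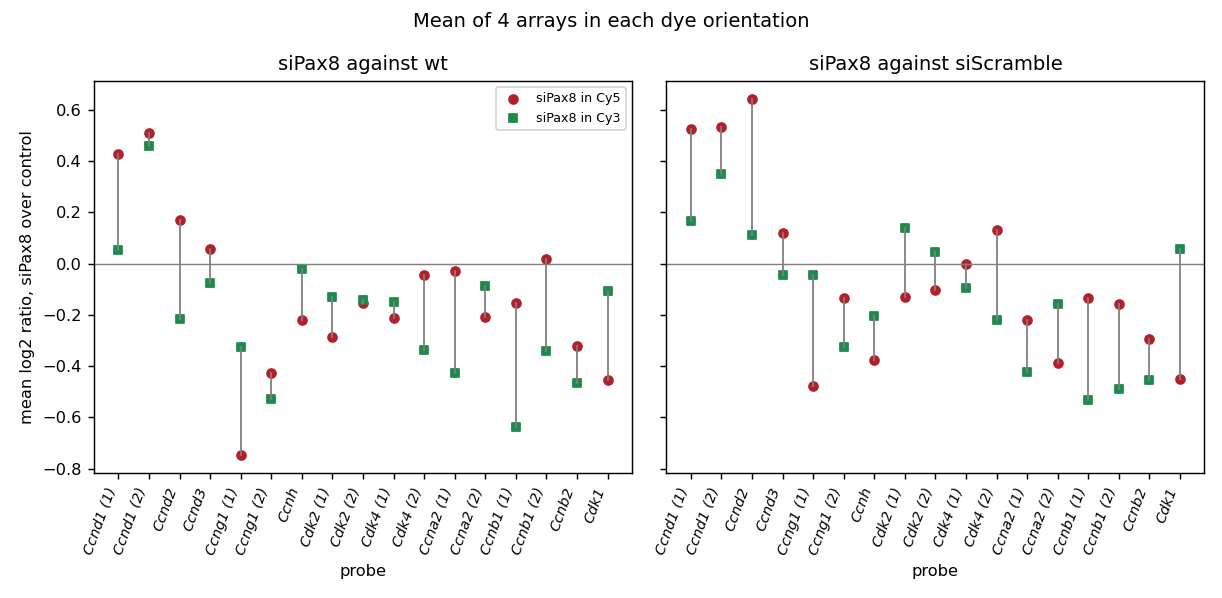
Mean log2 ratio of the 4 arrays with siPax8 in Cy5 (circles) and of the 4 with siPax8 in Cy3 (squares) for each member probe and for probes of Ccna2, Ccnb1, Ccnb2 and Cdk1. Grey lines join the orientations of a probe; A_44_P189299 (Ccnd1), A_44_P235919 (Ccng1), Ccnd2 and Cdk1 are among the probes far apart, while both orientations of every Ccnd1 and Ccng1 probe lie on the same side of 0.

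The mitotic cyclins were lower together. Of 5 measured genes of the mitotic cyclins and Cdk1, 4 fell against wt and 3 against siScramble cells by every probe, and 0 rose. Among all named genes 9.46% were lower by every probe against wt and 1.31% against siScramble cells. Ccnb1 and Ccnb2, the B-type cyclins that activate Cdk1, and Ccna2, the cyclin of S phase and G2, were below 0 in all 4 replicates of both comparisons by each of their probes. Ccnb2 had a mean of -0.39 ± 0.05 against wt (SD, n = 4; limma adjusted p = 2.52e-05) and -0.37 ± 0.10 against siScramble cells (SD, n = 4; limma adjusted p = 0.00265). Both Ccnb1 probes passed in each comparison, with gene means of -0.28 ± 0.06 and -0.33 ± 0.06 (SD, n = 4). Of the Ccna2 probes, 1 of 2 passed against wt and 2 of 2 against siScramble cells, with gene means of -0.19 ± 0.07 and -0.30 ± 0.04 (SD, n = 4). Cdk1, their kinase, fell by 0.28 ± 0.09 against wt cells (SD, n = 4; limma adjusted p = 0.000623) and had a mean of -0.20 ± 0.09 against siScramble cells (SD, n = 4; limma adjusted p = 0.0206). Some of these falls depended on the dye. With siPax8 in Cy5 and in Cy3 the ratios against wt cells were 0.02 and -0.34 for the Ccnb1 probe A_44_P534089. For the Ccna2 probe A_43_P15962 they were -0.03 and -0.43. Cdk1 against siScramble cells gave -0.45 and 0.06. Every other orientation mean of the Ccna2, Ccnb1, Ccnb2 and Cdk1 probes was below 0. Ccna1 was well above background in wt cells on all 8 arrays and in siPax8 and siScramble cells on 0. Its log2 ratio against wt cells was -0.30 ± 0.06 (SD, n = 4; limma adjusted p = 0.000165), and no fold is given for it. Several of these cyclins, with Ccnh, Ccng1 and Ccnd1, are on gene lists that the study drew from these same arrays, so their directions are not independent of it.

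Each member was set against the mean of Ccna2, Ccnb1 and Ccnb2 in the same replicate, which was -0.29 ± 0.05 against wt and -0.33 ± 0.04 against siScramble cells (SD, n = 4). With 4 replicates, the smallest two-sided p of the exact sign-flip permutation test is 0.125, so no difference could pass, and 14 were computed. Ccnd1 lay above the mitotic cyclins by 0.65 ± 0.04 against wt and by 0.73 ± 0.06 against siScramble cells, in 4 of 4 replicates each (SD, n = 4; exact p = 0.125, adjusted 0.159). Ccnd3 lay above them by 0.28 ± 0.14 and 0.37 ± 0.03, also in 4 of 4 replicates. Ccnd2 lay above them by 0.26 ± 0.11 and 0.71 ± 0.21, again in 4 of 4 replicates of each comparison. Each D-type cyclin thus lay above the mitotic mean in every replicate, including those in which Ccnd2 and Ccnd3 were below 0. Ccng1 differed from the mitotic cyclins by -0.22 ± 0.04, below them in 4 of 4 replicates against wt cells, but against siScramble cells the difference was 0.09 ± 0.13, above 0 in 2 of 4 (exact p = 0.5). Ccnh came closest to them against siScramble cells, with a difference of 0.04 ± 0.13 (above 0 in 3 of 4; exact p = 0.625), and against wt cells it lay above by 0.17 ± 0.08 in 4 of 4. Cdk2 differed by 0.11 ± 0.07 and 0.32 ± 0.13, and Cdk4 by 0.10 ± 0.19 and 0.29 ± 0.10, with replicate 1 of Cdk4 against wt cells as the only value below 0 among these 16. With siPax8 in Cy5 alone, Ccnh and Cdk2 lay below the mitotic cyclins against wt cells, at -0.05 each, and Ccnh and Ccng1 did so against siScramble cells, at -0.13 and -0.06.

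**Figure D4:**
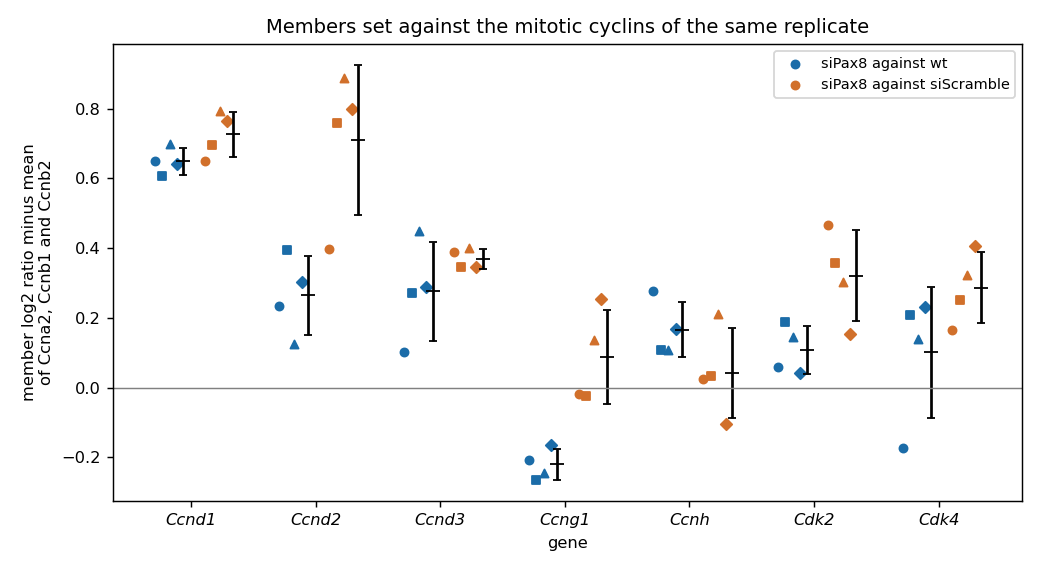
Log2 ratio of each member gene minus the mean log2 ratio of Ccna2, Ccnb1 and Ccnb2 in the same replicate, against wt (blue) and siScramble cells (orange). Points are replicates, and crosses with error bars are means and SD. All D-type cyclin points lie above 0, and the Ccng1 points lie below 0 against wt cells and around 0 against siScramble cells.

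Genes of the surrounding pathway were read from lists chosen with earlier results of these data known, and a gene counts when each of its probes passed. Counted in this way, 7.26% of all named genes were higher and 9.46% lower against wt cells. Against siScramble cells these shares were 1.67% and 1.31%. Of 20 E2F target genes of S phase 7 were measured, of which 4 were lower against wt cells and 1 against siScramble cells, with medians of -0.23 and -0.21 and every gene mean below 0 in both. Orc1, a subunit of the origin recognition complex, was the one that passed in both, at -0.26 ± 0.04 against wt (SD, n = 4; limma adjusted p = 0.000222) and -0.27 ± 0.01 against siScramble cells (SD, n = 4; limma adjusted p = 0.00132). Of 16 M phase genes 7 were measured, of which 4 were lower and 1 higher against wt cells, and 0 were lower and 1 higher against siScramble cells, with medians of -0.31 and -0.20. The higher one was Aurkb, the kinase of the chromosomal passenger complex, at 0.31 ± 0.11 and 0.36 ± 0.04 (SD, n = 4; limma adjusted p = 0.000518 and 0.000772). Over all named genes the medians were -0.0052 and -0.0034. Among 3 measured of 15 other G1 regulators, Tfdp1, the dimer partner of E2F factors, fell by 0.35 ± 0.10 against wt cells (SD, n = 4; larger limma adjusted p of its 2 probes 0.00161) and had a mean of -0.19 ± 0.01 against siScramble cells (SD, n = 4; limma adjusted p up to 0.0192). A probe that the study's table of changed probes names Ccne2, an E-type cyclin, had means of -0.44 ± 0.06 (SD, n = 4; limma adjusted p = 1.81e-05) and -0.17 ± 0.09 (SD, n = 4; limma adjusted p = 0.0381). That table lists changed probes only, so this probe is left out of the counts.

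Of 7 measured Cdk inhibitor genes, 2 were higher and 2 lower against wt cells, and 1 was higher and 0 lower against siScramble cells. Cdkn2b, which blocks Cdk4 and Cdk6, was the one higher in both, by 0.77 ± 0.13 (SD, n = 4; limma adjusted p = 5.17e-06) and 0.45 ± 0.16 (SD, n = 4; limma adjusted p = 0.00442). Against wt cells Cdkn2d was also higher, at 0.23, while Cdkn1a and Cdkn2c were lower, at -0.30 and -0.21. Against siScramble cells Cdkn2d, Cdkn1a and Cdkn2c had means of -0.11, -0.08 and -0.11, and none passed. Cyclin H's partners were measured in part: of 4 measured genes of the Cdk-activating kinase and TFIIH, Mnat1 was higher against wt cells, at 0.20 ± 0.10 (SD, n = 4; limma adjusted p = 0.00478), and Gtf2h4, a TFIIH subunit, lower against siScramble cells, at -0.22 ± 0.03 (SD, n = 4; limma adjusted p = 0.00349). Mnat1 had a mean of -0.05 against siScramble cells and Gtf2h4 of -0.16 against wt cells, so Mnat1 did not follow Ccnh in direction against wt cells. Of 9 measured p53 target genes, 3 were higher and 3 lower against wt cells, and 1 was higher and 0 lower against siScramble cells. Gadd45a, which binds PCNA and inhibits Cdk1, was higher in both, by 1.74 ± 0.05 (SD, n = 4; limma adjusted p = 7.42e-09) and 0.98 ± 0.08 (SD, n = 4; limma adjusted p = 4.94e-05). Bbc3 and Phlda3 were higher against wt cells, at 0.50 and 0.33, and had means of 0.16 and 0.14 against siScramble cells, where neither passed. Ccng1, also a p53 target, thus had the sign opposite to Gadd45a, Bbc3 and Phlda3. Against wt cells Ccng1 had the same sign as the 3 lower targets, Zmat3, Btg2 and Fas, at -0.57, -0.34 and -0.28. Against siScramble cells these 3 had means of -0.16, -0.01 and -0.14. The part of p53 was not tested. Of 7 measured other cyclins and Cdks, Cdk12 alone passed, higher in both comparisons at 0.31 ± 0.18 and 0.21 ± 0.03 (SD, n = 4; limma adjusted p = 0.00393 and 0.0038).

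Of 15 measured genes that can induce D-type cyclins, 6 were higher and 2 lower against wt cells, and 3 were higher and 1 lower against siScramble cells, with medians of 0.11 and -0.04. Jun, Junb and Fosl2, subunits of the AP-1 factor, were higher in both comparisons, with Jun at 0.92 ± 0.05 (SD, n = 4; limma adjusted p = 2.32e-07) and 0.47 ± 0.10 (SD, n = 4; limma adjusted p = 0.00121). Junb stood at 0.42 and 0.25 and Fosl2 at 0.47 and 0.29. Egr1 was higher against wt cells, at 1.31 (limma adjusted p = 1.42e-07), and had a mean of -0.05 against siScramble cells. Myc was higher against wt cells, at 0.24, and had a mean of 0.23 against siScramble cells, short of the threshold (limma adjusted p = 0.00762). The 2 lower against wt cells were Jund, another AP-1 subunit, at -0.46, and Igf1r, at -0.26. Against siScramble cells Jund and Igf1r had means of -0.19 and -0.02, and neither passed. Fos had opposite signs against the controls, at 0.86 ± 0.05 against wt (SD, n = 4; limma adjusted p = 2.74e-07) and -0.22 ± 0.03 against siScramble cells (SD, n = 4; limma adjusted p = 0.0038). Ccnd1, in contrast to Fos, had ratios above 0 and of like size against both controls.

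**Figure D5:**
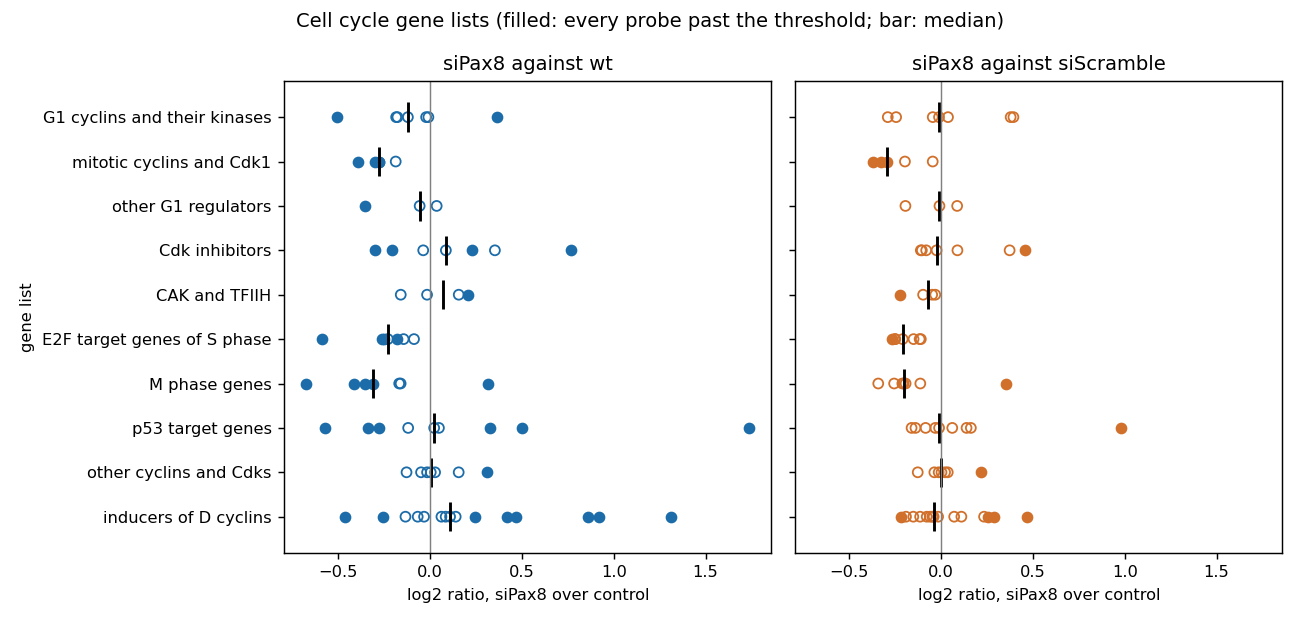
Mean log2 ratio of siPax8 over control for each measured gene of the member list and of the surrounding lists, against wt cells on the left and siScramble cells on the right. Filled circles are genes with every probe past the threshold, open circles are the others, and vertical bars are list medians. The mitotic cyclins lie below 0 in both panels, while the members lie on both sides.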

How the data were processed

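PCCl3 RNA was compared on 16 two-colour arrays. Per the file headers, Feature Extraction 10.1.1.1 was used, although an older release stands in the study's methods. The authors deposited spot intensities with local backgrounds, intensities processed by the Agilent software, log10 ratios (not used) and a table of normalized log2 ratios, which holds control over siPax8 and served as an alternative. Here, mean intensities were corrected with normexp (offset 50), normalized by loess, with control and outlier spots at weight 0, and by quantiles over all channels (limma 3.58.1 under R 4.3.3). Control spots (1639 of 45018) and outlier spots (171 to 308 per array) were left out. Dye swaps were averaged, and 4 values per probe were fitted with lmFit and eBayes, each comparison by itself, with Benjamini-Hochberg adjustment over 41012 probes. The difference between comparisons was fitted to the 8 averaged ratios as separate groups. RefSeq accessions (GRCr8) named 10768 probes.

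Samples were grouped by their titles and dye labels, and p-values measure the spread between biological replicates as labelled. The 4 slides held 4 arrays each, 2 of each comparison. The members and lists were chosen with earlier results of these data known. Genes named are all members, Pax8, the mitotic cyclins with Cdk1, list genes past the threshold in both comparisons (otherwise up to 3 per direction past it in either), and the 5 genes most correlated with a member that has a probe past it in both. Of the Cdk inhibitors, the p53 target genes and the inducers of D-type cyclins, the other genes past the threshold against wt cells are named as well. The alternatives covered background, normalization, filter, dye orientation, dye term, replicate and slide blocks, a shared fit, variance trend, and each replicate left out. The scripts were tested on simulated data.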

Additional observations from a re-analysis of the deposited data

Results flagged for a closer look

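Of 50 sets of 4 replicate values examined, 2 held a value whose gap to its nearest neighbour, divided by the range of the 4, exceeded the 95% critical value of Dixon's test, where chance alone gives about 1 in 20. For the Cdk4 probe A_44_P388777 against wt cells this share was 0.844, from replicate 1 at -0.58, and the other Cdk4 probe showed the same replicate at -0.48. For the Ccnb1 probe A_44_P534089 against siScramble cells it was 0.853, from replicate 2 at -0.26 beside -0.34 to -0.35 in the others.

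Ccna1 differed between the comparisons by -0.25 on the log2 scale in the fit of separate groups (limma adjusted p = 0.00483), which did not pass with the replicate block (0.00656), with means of -0.30 against wt and -0.05 against siScramble cells, and its signal was not well above background in siPax8 and siScramble cells.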

How the results depend on the processing

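Of the 11 member probes, 4 passed against wt cells, 7 with siPax8 in Cy5 only, and 3 to 4 with 1 replicate left out. Against siScramble cells 1 passed, beside 2 without background subtraction, with an offset of 16 or with a variance trend, 3 with siPax8 in Cy3 only, with the replicate block over 8 arrays or with both comparisons in one fit, 4 with a dye term, 0 with the Agilent software's intensities, the study's value table, siPax8 in Cy5 only or slide as a block, and 0 to 1 with 1 replicate left out. The count of 1 was lost without replicate 2, 3 or 4, and without replicate 1 the probe that passed was Ccnd2 instead of Ccnd1. For the difference between the comparisons the count was 0, and 0 to 1 with 1 replicate left out. The list genes, 14 higher and 20 lower against wt and 7 higher and 6 lower against siScramble cells, were 8, 4, 0 and 0 with the Agilent software's intensities. Over all probes these gave 1757 and 29 calls in place of 6260 and 867, and 82.8% of the calls against siScramble cells were then higher, in place of 57.6%.

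Ratios near 0 changed sign. Against wt cells Ccnd3 became 0.0077 with the Agilent software's intensities, 0.010 with loess only or Aquantile and 0.056 with siPax8 in Cy5 only, with -0.069 to 0.071 when 1 replicate was left out, and Ccnd2 became 0.17 with siPax8 in Cy5 only, with -0.075 to 0.022. Against siScramble cells Cdk2 became 0.011 with loess only or Aquantile, 0.092 with siPax8 in Cy3 only and 0.0053 by its brightest probe, with -0.043 to 0.028; Cdk4 became 0.066 with siPax8 in Cy5 only, with -0.10 to 0.011, and Ccnd3 became -0.044 with siPax8 in Cy3 only. Relative to the mitotic cyclins with siPax8 in Cy5 only, Ccnh and Cdk2 became -0.052 and -0.051 against wt cells, and Ccng1 and Ccnh -0.059 and -0.13 against siScramble cells, where Ccnh also ranged from -0.015 (without replicate 3) to 0.090 with 1 replicate left out. The cause of these changes was not tested. With the replicate numbers taken as pairs, the difference between the comparisons still passed for 0 of 11 probes, with 9 at an unadjusted p under 0.05 in place of 5, but the call was lost for Ccna1 (limma adjusted p = 0.00656 in place of 0.00483) and gained for Pax8 (0.00171 in place of 0.183) and Ccne2 (0.00404 in place of 0.00713). The numbers were not treated as pairs, because the deviations of same-numbered samples correlated by 0.40, 0.18, 0.04 and 0.57, and not every sample correlated best with its own number. Within a comparison, where dye swaps were averaged by number, the same-numbered arrays correlated by 0.12 to 0.58. For replicate 2 against wt cells this was 0.12, below the 0.20 reached with another number, while the other replicates correlated best with their own. Low signal set no limit on the members, which were above background on every array.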
